A study of Mus musculus with 8 samples.

Results

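Genes of retinoid uptake, storage, oxidation and breakdown were followed in mouse hepatic stellate cells, which had been isolated through a sort that gates on retinoid fluorescence. The 10 genes were taken by name from the 19938 genes measured: Rbp4 and Stra6 (transport and uptake), Lrat (storage), Rdh10, Rdh11 and Dhrs3 (conversion between retinol and retinal), Aldh1a1, Aldh1a2 and Aldh1a3 (retinoic acid synthesis) and Cyp26b1 (retinoic acid breakdown). Each had 1 probe set annotated to it alone, and a further probe set annotated to both Rdh11 and Pwwp3a was left out. All values are deposited log2 expression values of Affymetrix mouse gene arrays, 1 per probe set and array, so a difference of 1 is a doubling.

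The control group held 4 arrays (control 1 to control 4) of cells from Lhx2 floxed mice without Cre. The knockout group held 4 arrays (knockout 5 to knockout 8) of cells from Lhx2 floxed mice with Mx1Cre, a Cre transgene under an interferon-inducible promoter that is active in many cell types. Both groups were on a C57BL/6J background and had received poly(I:C), a synthetic RNA that triggers an interferon response, 3 times. Cells were isolated 2 weeks after that treatment by density centrifugation and cell sorting. Controls thus shared the floxed allele and the treatment but not the transgene, and loss of Lhx2 cannot be told apart from an effect of Cre, nor loss in stellate cells from loss in other cells. The labels used here give no age or sex and do not state whether each array was a separate animal, so the spread behind each p-value is that between arrays and may be technical.

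Stellate cells hold most of the body's vitamin A as retinyl esters in cytoplasmic lipid droplets. Retinol reaches cells bound to retinol-binding protein, is esterified for storage, or is oxidised first to retinal and then to retinoic acid. Retinoic acid binds nuclear receptors of the RAR family, which act as pairs with RXR receptors, and enzymes of the CYP26 family remove it. Because the sort gated on retinoid fluorescence, it was set to collect cells with retinoids in both groups, which bounds what any level here can show. RNA of other cell types was still present, as the marker means below show.

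As a check of the labels, Lhx2 was lower on all knockout arrays (11.09 to 11.49) than on all control arrays (11.88 to 12.07), although its probes may lie outside the deleted part. Array medians lay between 7.42 and 7.47, and any pair of arrays had a Pearson correlation of 0.984 to 0.996 across probe sets. The mean log2 level of 19 stellate cell markers, Lrat not counted, was 12.70 to 12.78 in controls and 12.14 to 12.22 in knockouts. Of 20 such markers, Lrat counted, 10 fell and 1 rose past the threshold, 55% beside 7.38% of all genes. Bmp10 had the largest fall (-3.58). Reln and Des, both stellate cell genes, lay at 12.31 or above on every array, but Reln was among the 10 that fell (-0.26, limma adjusted p = 0.0114). Hepatocyte markers (21 genes) had means of 8.35 to 10.53 and 8.80 to 10.35, and sinusoidal endothelial markers (15 genes) 8.76 to 11.11 and 8.74 to 9.92, in control and knockout arrays, so RNA of both cell types was present in amounts that varied between arrays. The group means were 9.59 and 9.52 for hepatocyte markers, none of which passed. They were 10.02 and 9.40 for endothelial markers, of which Clec4g fell past the threshold (-1.23, limma adjusted p = 0.0177). Portal fibroblast markers (12 genes, of which 5 rose past the threshold) had means of 8.02 to 8.16 in the controls and 8.77 to 9.00 in the knockouts. Macrophage, mesothelial, cholangiocyte and smooth muscle marker means had group means within 0.13 of each other, but single members passed: of 10 smooth muscle markers Tagln (0.77) and Notch3 (0.57) rose and Smtn (-0.36) fell, of 13 macrophage markers Cd68 (-0.61) fell, of 13 mesothelial markers Wt1 (-0.24) fell, and none of 8 cholangiocyte markers passed in limma (none at an unadjusted p under 0.05). The macrophage markers that did not pass went both ways, with a median difference of 0.02 over all 13. Clec4f had a difference of -0.45 (limma adjusted p = 0.0517) and Vsig4 one of -1.24 (0.104), while Lyz2 had one of 0.30 (0.797) and C1qa one of 0.28 (0.592). As a guide to unexpressed levels, 1190 olfactory and vomeronasal receptor genes had a 95th percentile of 6.78.

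Of the 10 retinoid genes, 1 passed the test between the groups: Aldh1a3, an enzyme that makes retinoic acid from retinal, fell in the knockout to 51.3% of its control level. None rose past the threshold, and 9 did not pass. Rdh10, a dehydrogenase that oxidises retinol to retinal, came nearest, with all 4 knockout arrays above all 4 control arrays but an adjusted p of 0.0626 in limma. In the same comparison 7.38% of all genes passed (3.76% higher and 3.63% lower in the knockout), so 1 of 10 is near the background. Likewise, 2 of the 10 genes had groups that did not overlap, where 12.7% of all genes did, and 2 had an unadjusted p under 0.05, where 17.5% of all genes did. The median log2 difference of the 10 genes was -0.07, beside -0.02 over all genes.

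**Figure D1:**
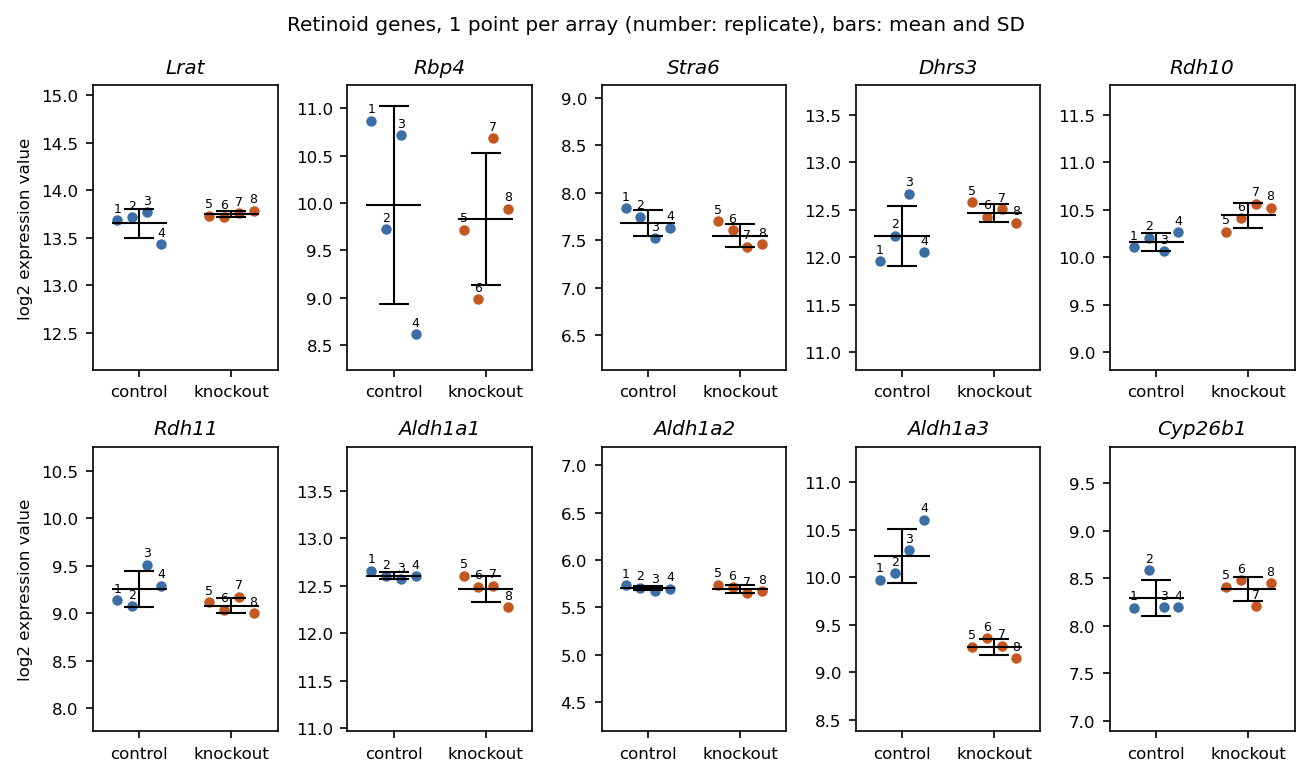
Log2 expression value (vertical axis, of the same span in every panel) of the 10 retinoid genes on the 4 control and 4 knockout arrays, with 1 point per array, its replicate number, and the group mean and SD. Aldh1a3 is separated between the groups, with a highest knockout value of 9.36 and a lowest control value of 9.98, while Rbp4 spreads from 8.62 to 10.87 within the control group alone.

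Rbp4 encodes the plasma carrier of retinol, which hepatocytes secrete together with transthyretin. Its log2 level was 10.87, 9.73, 10.71 and 8.62 on control 1 to control 4, and 9.72, 8.98, 10.68 and 9.94 on knockout 5 to knockout 8. The groups overlapped, and both held low and high arrays. The control mean was 9.98 ± 1.04 and the knockout mean 9.83 ± 0.70 (SD, n = 4 each), a difference of -0.15 with a standard error of 0.50 (limma adjusted p = 0.943). Its 95% confidence interval, from -1.29 to 0.99, leaves room for a change of more than 1 log2 unit downwards. Its spread within groups, an SD of 0.885, was larger than that of 99.7% of all genes, whose median SD was 0.109.

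The level of Rbp4 went with that of hepatocyte genes from array to array. The mean of the 21 hepatocyte markers was 10.53, 9.21, 10.28 and 8.35 on control 1 to control 4 and 9.33, 8.80, 10.35 and 9.60 on knockout 5 to knockout 8. Control 4 and knockout 6 were the lowest arrays, and control 1, control 3 and knockout 7 the highest, on both measures. With the hepatocyte marker mean as a covariate, the standard error for Rbp4 dropped to 0.07 and the difference was -0.08 (limma adjusted p = 0.695). Ttr, transthyretin, which is itself among those markers, had a difference of 0.06 (SE 0.47), and Adh1, an alcohol dehydrogenase abundant in hepatocytes that oxidises retinol, one of -0.18 (SE 0.56). Adh1 ran from 8.48 on control 4 to 11.07 on control 1. In such bulk samples fewer cells of a type and less RNA per cell cannot be told apart.

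**Figure D2:**
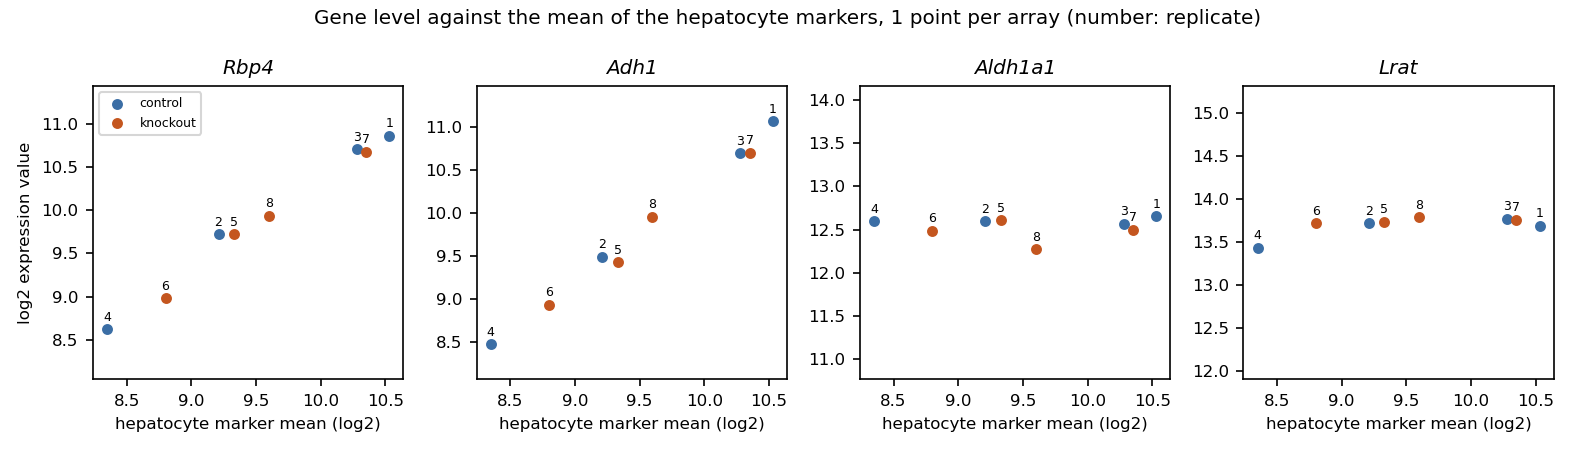
Log2 expression value of Rbp4, Adh1, Aldh1a1 and Lrat (vertical axis, of the same span in every panel) against the mean log2 level of 21 hepatocyte markers (horizontal axis) on each of the 8 arrays, blue for control and orange for knockout, numbered by replicate. Rbp4 and Adh1 are highest on the arrays with the highest marker means in both groups, whereas Aldh1a1 stays between 12.27 and 12.66 and Lrat between 13.43 and 13.79.

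Stra6, a membrane receptor that takes up retinol from its plasma carrier, had low values, 7.52 to 7.84 in the control and 7.43 to 7.70 in the knockout group, not far above the guide of 6.78. The difference was -0.14 (SE 0.09, limma adjusted p = 0.521), and -0.086 without control 1. Among other carriers and uptake genes (11 measured of 13 listed), 1 fell and none rose past the threshold in limma. That is a share of 9.09%, beside 7.38% of all genes in either direction and 3.63% lower. An unadjusted p under 0.05 was found for 2 of the 11, beside 17.5% of all genes. The fallen gene was Rbp3, known as the retinoid-binding protein between retinal photoreceptors and pigment epithelium. Rbp3 was 7.48, 7.80, 7.53 and 7.11 on the control arrays and 6.92, 6.70, 6.47 and 6.76 on the knockout arrays, a difference of -0.77 (SE 0.14, adjusted p = 0.0106). Its groups did not overlap, and 3 of its 4 knockout values lay below the guide, so the size of its fall is uncertain. The intracellular carriers of retinoic acid showed no such separation: Crabp1 had a difference of -0.02 (SE 0.09) and Crabp2 one of -0.005 (SE 0.07).

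Lrat encodes lecithin-retinol acyltransferase, which makes the retinyl esters that stellate cells store. Its log2 level was 13.69, 13.72, 13.77 and 13.43 on control 1 to control 4, and 13.73, 13.72, 13.76 and 13.79 on knockout 5 to knockout 8. The knockout arrays lay close together, and control 4 was the lowest of the 8. The difference was 0.10 (SE 0.07, limma adjusted p = 0.633), or 107.0% of the control level with a 95% confidence interval of 95.3% to 120.2%. The value rests on control 4: without that array the difference was 0.02 (95% confidence interval 93.3% to 110.8% of the control level), and without control 1 and control 4 it was 0.006 (91.0% to 110.8%).

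Of 14 measured genes of retinyl ester synthesis and hydrolysis, 2 rose, 1 fell and 11 did not pass, so that 21.4% were called beside 7.38% of all genes (3.76% higher and 3.63% lower). Lpl, lipoprotein lipase, which also acts on retinyl esters of circulating particles, rose from 11.22 ± 0.07 to 11.93 ± 0.20 (SD, n = 4 each), a difference of 0.71 (SE 0.09, adjusted p = 0.00144). Lipe, hormone-sensitive lipase, which can hydrolyse retinyl esters, rose from 8.83 ± 0.07 to 9.23 ± 0.10 (SD, n = 4 each), a difference of 0.39 (SE 0.06, adjusted p = 0.00499). All knockout arrays were above all control arrays for both. The groups did not overlap for 4 of the 14 genes, beside 12.7% of all genes. Lipa, lysosomal acid lipase, fell by 0.27 (SE 0.07, adjusted p = 0.036), a call that was lost without any 1 of control 2, control 3, control 4 and the knockout arrays (adjusted p up to 0.105).

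The enzymes that convert retinol and retinal into each other did not pass the test. Rdh10 was 10.11, 10.21, 10.06 and 10.26 on control 1 to control 4 and 10.27, 10.41, 10.56 and 10.52 on knockout 5 to knockout 8. The groups met without overlapping, with knockout 5 just above control 4. The difference was 0.28 with a standard error of 0.08 and a 95% confidence interval of 0.11 to 0.46. Its unadjusted p in limma was 0.00501 and its adjusted p 0.0626. Without knockout 5 the difference was 0.34 and passed (adjusted p = 0.0267), and over all alternatives the adjusted p ran from 0.0233 to 0.191.

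Dhrs3, which reduces retinal back to retinol and is known to be induced by retinoic acid, was 11.96, 12.22, 12.67 and 12.05 on control 1 to control 4 and 12.58, 12.43, 12.50 and 12.36 on knockout 5 to knockout 8. Control 3 was the highest of all 8 arrays, and the other control arrays lay below every knockout array. The difference was 0.24 (SE 0.14, limma adjusted p = 0.461). Single control arrays moved this value: without control 3 it was 0.39 and passed (adjusted p = 0.0245), and without control 1 and control 4 it was 0.02 (adjusted p = 0.989). Rdh11, a reductase of retinal, had values of 9.07 to 9.51 in the control and 9.00 to 9.18 in the knockout group, a difference of -0.17 (SE 0.09, adjusted p = 0.427), which was -0.087 without control 3.

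Of 27 other measured genes of retinol and retinal redox, 1 fell and 26 did not pass, a share of 3.7% beside 7.38% of all genes. The fallen gene was Bco1, the enzyme that cleaves beta-carotene into retinal. Bco1 was 11.79, 11.94, 11.95 and 11.98 on the control arrays and 11.68, 11.58, 11.45 and 11.44 on the knockout arrays, a difference of -0.38 (SE 0.07, limma adjusted p = 0.0106). Every knockout array was below every control array. The median difference of the 27 genes was -0.02, the same to 2 decimals as that over all genes.

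The largest difference among the 10 genes was that of Aldh1a3, 1 of 3 related dehydrogenases that oxidise retinal to retinoic acid. Aldh1a3 was 9.98, 10.04, 10.29 and 10.61 on control 1 to control 4 and 9.27, 9.36, 9.28 and 9.15 on knockout 5 to knockout 8. The groups were apart, and the control arrays spread more widely than the knockout arrays. The mean fell from 10.23 ± 0.29 to 9.27 ± 0.09 (SD, n = 4 each), a difference of -0.96 with a standard error of 0.13 and a 95% confidence interval of -1.25 to -0.68 (limma adjusted p = 0.00142). The knockout thus kept between 42.1% and 62.6% of the control level, and p was 0.0286 in an exact permutation test (two-sided), which is the least that 4 arrays against 4 can give. Groups of this size that do not overlap always give that p, and Rdh10 had it too. By absolute difference Aldh1a3 ranked 225 of 19938 genes.

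The fall of Aldh1a3 passed under all 21 alternatives, with a difference between -1.05 and -0.84 and an adjusted p of at most 0.00657 in limma. Some alternatives could not move the difference. Thresholds, dim-gene filters and moderation leave it as it is, and so does probe set choice for a gene with 1 probe set. With the hepatocyte marker mean as a covariate the difference was -0.97 (adjusted p = 0.00054) and with the endothelial marker mean -0.88 (adjusted p = 0.00342). Without control 1 and control 4, the control arrays at the ends of the hepatocyte and endothelial ranges, it was -0.90 (adjusted p = 0.00227). Between the same groups 5 of 12 portal fibroblast markers rose, and 10 of 20 stellate cell markers fell and 1 rose, with list means that differed by 0.75 and -0.56, and their part in the fall of Aldh1a3 was not tested. The genes with the closest pattern to Aldh1a3 over the 8 arrays were Osbpl3, Ostf1 and Shoc2, with Pearson correlations of 0.99, 0.99 and 0.98. These arrays hold the group difference and shared normalization. After the group means were taken out the correlations were 0.94, 0.93 and 0.88, which describes these 3 genes picked as the most alike of all.

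Aldh1a1, the related enzyme, lay at 12.57 to 12.66 in the control and 12.27 to 12.61 in the knockout group. Its difference of -0.14 (SE 0.07) did not pass (limma adjusted p = 0.392), and its 95% confidence interval of -0.30 to 0.02 does not overlap that of Aldh1a3. Without knockout 8 the difference was -0.075 (95% confidence interval -0.21 to 0.06). Aldh1a7, a close relative of Aldh1a1 in sequence, had a difference of -0.13 (SE 0.09, adjusted p = 0.598), and sharing of signal between those probe sets was not tested. Aldh1a2, another retinal dehydrogenase, which is known in the liver from mesothelial cells, had values of 5.68 to 5.73 in the control and 5.65 to 5.74 in the knockout group, all below the guide of 6.78. Of 13 mesothelial markers 8 had a mean above the guide in at least 1 group, beside 13796 of all 19938 genes. Podxl, 1 of the 8, was lowest on control 1 (7.64) and highest on control 4 (9.22) among the controls, as was the endothelial marker mean. Krt18, another, was highest on control 1 (8.27) and lowest on control 4 (7.74), as was the hepatocyte marker mean. Whether the signal of the 8 came from mesothelial cells was not tested. Among the 8 markers Wt1, a transcription factor of mesothelial cells, fell from 8.12 to 7.88 (SE 0.05, limma adjusted p = 0.0291), while Msln and Upk3b stood at 6.91 and 7.04 in the control group.

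Cyp26b1, which hydroxylates retinoic acid for removal, was 8.19, 8.58, 8.20 and 8.20 on control 1 to control 4 and 8.41, 8.48, 8.21 and 8.44 on knockout 5 to knockout 8. Control 2 stood above the other control arrays, and the groups overlapped. The difference was 0.09 (SE 0.10, limma adjusted p = 0.773), with a 95% confidence interval of -0.13 to 0.32. Cyp26a1, the related enzyme known from hepatocytes, was below the guide in both groups (6.32 and 6.31). None of the 14 measured other enzymes of retinal oxidation and retinoic acid breakdown passed the limma test, and 3 of them had an unadjusted p under 0.05, beside 17.5% of all genes. Among the 14, 4 had means no higher than the guide in both groups, beside 6142 of all 19938 genes.

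**Figure D3:**
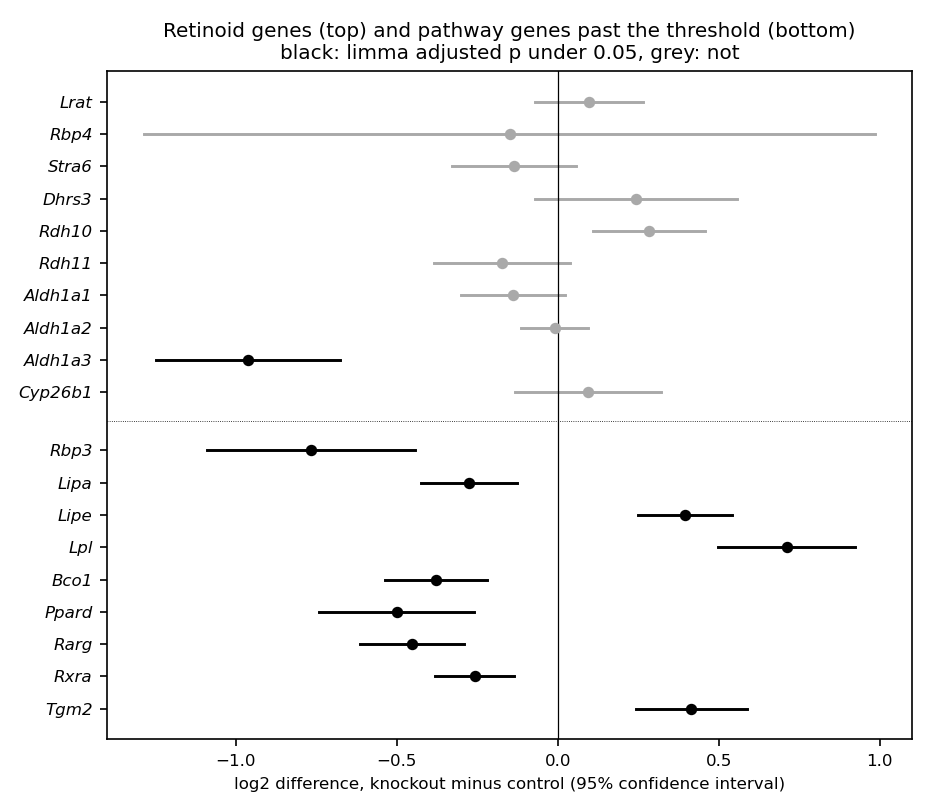
Log2 difference, knockout minus control (horizontal axis), with its 95% confidence interval from limma for the 10 retinoid genes (upper block) and for the 9 other pathway genes past an adjusted p of 0.05 (lower block), in black where that threshold was passed and grey where it was not. Aldh1a3 is the only black point of the upper block, at -0.96, and the interval of Rbp4 is the widest.

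Receptors of retinoic acid and their partners were measured as the next step of the pathway. Of 11 measured receptors and coregulators, 3 fell, none rose past the threshold in limma and 8 did not pass, with a median difference of -0.11. The called share was 27.3%, beside 7.38% of all genes in either direction and 3.63% lower. An unadjusted p under 0.05 was found for 5 of the 11, beside 17.5% of all genes. Rarg, a retinoic acid receptor, was 10.86, 10.79, 10.80 and 10.75 on the control arrays and 10.16, 10.36, 10.49 and 10.38 on the knockout arrays, a difference of -0.45 (SE 0.07, limma adjusted p = 0.00408). Rxra, the RXR partner, fell by 0.26 (SE 0.05, adjusted p = 0.0187), and Ppard, a fatty acid receptor that also pairs with RXR, fell by 0.50 (SE 0.11, adjusted p = 0.0206). The groups did not overlap for these 3 genes, nor for the coregulator Ncoa1, which did not pass (limma adjusted p = 0.182). That is 4 of the 11, beside 12.7% of all genes.

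The other retinoic acid receptors did not pass: Rara had a difference of -0.17 (SE 0.08, limma adjusted p = 0.356) and Rarb, which is also a known target of retinoic acid, one of -0.15 (SE 0.11, adjusted p = 0.616). Rxrb had a difference of 0.02 (SE 0.06), and Rxrg lay below the guide in both groups (6.55 each). The calls of Rxra and Ppard were lost without knockout 5 (adjusted p = 0.052 and 0.0617), without knockout 6 (0.0612 and 0.0694) and without control 1 and control 4 (0.123 and 0.0986). Rxra also lost its call without knockout 7 (0.0543). Rarg kept its call under each alternative at the threshold of 0.05 that set no minimum fold.

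**Figure D4:**
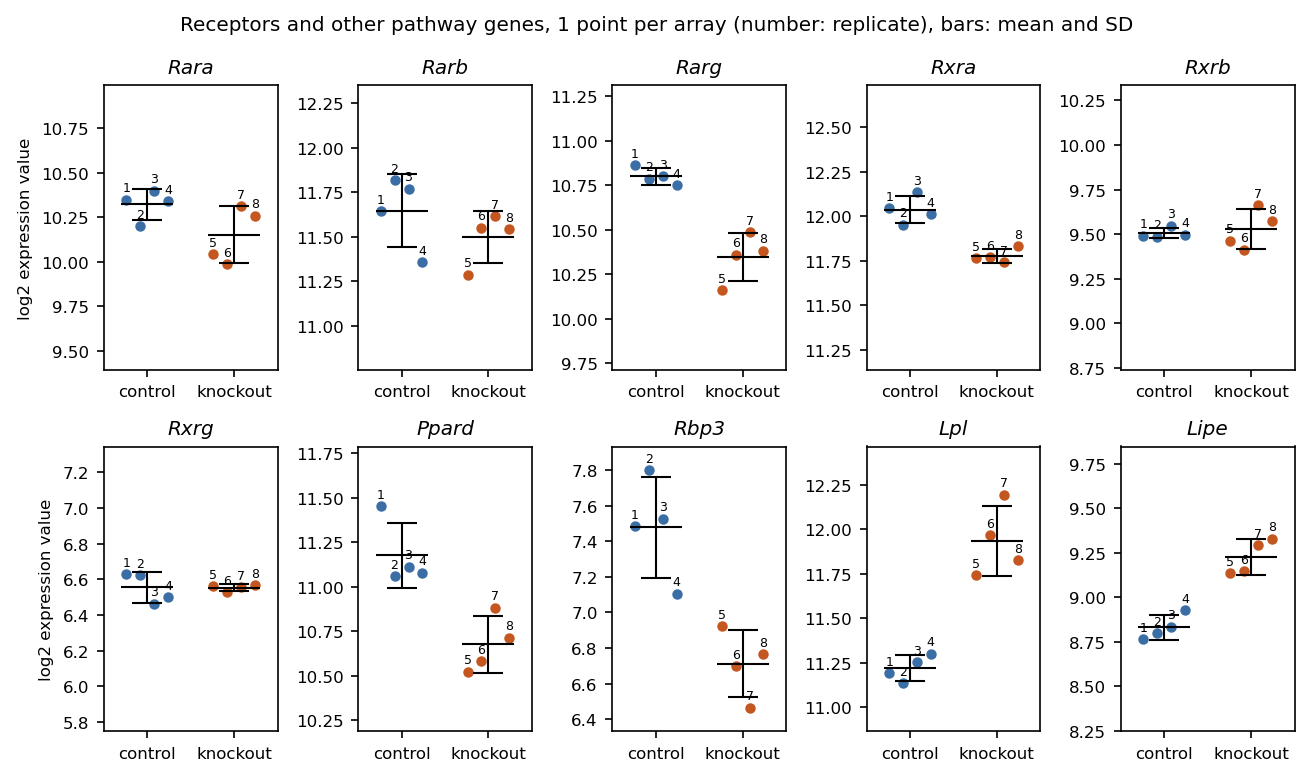
Log2 expression value (vertical axis, of the same span in every panel) of 6 retinoid receptors, Ppard, Rbp3, Lpl and Lipe on the 4 control and 4 knockout arrays, with 1 point per array, its replicate number, and the group mean and SD. Rarg, Rxra, Ppard and Rbp3 are lower, and Lpl and Lipe higher, on every knockout array, while the groups overlap for Rara, Rarb, Rxrb and Rxrg.

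Genes known to respond to retinoic acid went mostly without a call. Of 17 measured, 1 rose and 16 did not pass (5.88% called, beside 7.38% of all genes), with a median difference of -0.01. The risen gene was Tgm2, tissue transglutaminase, which went from 12.55 ± 0.14 to 12.96 ± 0.08 (SD, n = 4 each), a difference of 0.41 (SE 0.08, limma adjusted p = 0.0101). All knockout arrays (12.85 to 13.03) were above all control arrays (12.44 to 12.75), but without control 1 and control 4 the adjusted p was 0.123. Meis1, a homeobox factor named after its values were seen, had a difference of 0.40 and an adjusted p of 0.0542, which passed in 10 of the 21 alternatives. Over the 90 measured pathway genes outside the 10, each counted once, 3 rose and 6 fell, 10% of them, beside 7.38% of all genes. The 6 fell to 3 without knockout 5 or without knockout 6, since Lipa, Rxra and Ppard were then lost.

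Promoter windows, 250 bases before to 50 bases after a start site, were taken from RefSeq (GRCm38.p6) for 8 of the 10 genes, 16 windows in all; Rdh10 and Aldh1a3 had none in that table. They were searched on both strands for single 6-base motifs that form part of retinoid receptor sites, spelled AGGTCA or GGTTCA or AGTTCA or GGGTCA. Spaced pairs of these motifs, as in a whole receptor site, were not searched for. TAATTA, the core of sites bound by LIM homeodomain factors such as Lhx2, was searched for as well. None of the matches overlap in these windows. A single receptor motif was in 5 of the 16 windows, those of Rbp4, Stra6, Rdh11 and Aldh1a1, and in 43.7% of all 32851 windows. TAATTA was in 1 of the 16, a window of Rdh11, and in 5.29% of all windows. That window is shown because it held both kinds of motif: its 250 bases before the start lie at chr12:79190962-79191211 on the minus strand, and capitals mark the matches, with TAATTA beginning 213 and 159 bases and AGGTCA 147 bases before the start.
Rdh11 promoter: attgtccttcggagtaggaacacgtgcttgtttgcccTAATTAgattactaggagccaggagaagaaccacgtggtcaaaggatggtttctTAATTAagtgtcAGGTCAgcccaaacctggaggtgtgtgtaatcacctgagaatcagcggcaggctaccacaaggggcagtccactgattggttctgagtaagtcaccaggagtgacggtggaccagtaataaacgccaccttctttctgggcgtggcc
A match is a description of the sequence, and Rdh11 did not pass the test between the groups.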

How the data were processed

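The deposited log2 expression values of 35556 probe sets on 8 arrays were normalized by the authors with the Robust Multichip Algorithm (RMA), per the submitters' processing notes and the labels, from 150 ng RNA per sample. RMA gives the arrays a common distribution, so a shift shared by all genes would not be seen. Its version, the genome build and any scan dates are not stated in the sources, and batches were therefore not examined.

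A platform annotation gave 1 symbol for 21789 probe sets, several for 1621 and none for 12146, and only the first kind was used. For 999 genes with several probe sets the one with the highest mean was kept, which left 19938 genes. Knockout minus control was fitted over all genes in limma 3.58.1 (lmFit, eBayes; R 4.3.3) as a two-sided test without covariates, with Benjamini-Hochberg adjustment at a threshold of 0.05. This fit was first tested on simulated data with known changes. Sample titles gave the group and replicate number. The number of arrays limits the precision.

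The members and lists were chosen with earlier results of these data known. Named were the 10 genes, Lhx2, pathway genes past the threshold, fixed carriers, receptors and cell type markers, and the 3 genes most correlated with a called member; Meis1, Rdh16, Pnpla2 and Cyp1b1 were added after their values were seen. The 21 alternatives covered scaling, dim-gene filters, moderation, array weights, probe set choice, thresholds, marker covariates and left-out arrays.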

Additional observations from a re-analysis of the deposited data

Results flagged for a closer look

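Of 56 groups of 4 values examined (the 10 retinoid genes, Lhx2, the 9 pathway genes with a call and 8 marker means, in each group), 3 had 1 array far from the other 3, and chance alone gives about 1 in 20 such groups. Cyp26b1 was 8.58 on control 2, where the other control arrays lay at 8.19 to 8.20; without that array its difference between the groups was 0.19 (limma adjusted p = 0.262). Ppard was 11.45 on control 1, where the other control arrays lay at 11.06 to 11.11. The mean of the smooth muscle markers was 9.24 on knockout 5, where the other knockout arrays lay at 8.99 to 9.02.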

How the results depend on the processing

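Changes of threshold, dim-gene filter, moderation or probe set choice could not move the difference of Aldh1a3. Its fall and the count of 1 retinoid gene lower held under all 21 alternatives. Rdh10 passed under 5 of them: quantile normalization (0.28), only genes with at least 4 arrays above the median of all genes (0.28), eBayes with trend and robust fitting (0.28), the endothelial marker covariate (0.34) and without knockout 5. In each of these, and for Dhrs3 without control 3, the count of retinoid genes higher was 1 instead of 0. Differences near 0 changed sign: Rbp4 was 0.043 with array weights, Aldh1a2 0.017 with quantile normalization and 0.003 without control 1 and control 4, and Cyp26b1 -0.004 without those 2 arrays. Leaving out each array in turn gave -0.60 to 0.15 for Rbp4, -0.024 to 0.005 for Aldh1a2, 0.15 to 0.39 for Dhrs3, 0.24 to 0.34 for Rdh10, 0 to 1 retinoid genes higher, 3 to 5 pathway genes higher and 3 to 6 lower. Without control 4, Cyp1b1 and Meis1 were added to the pathway genes higher and Rdh16 to those lower, while Pnpla2 was lower with quantile normalization and with array weights. At an adjusted p under 0.01, 1 pathway gene was lower, and 386 of all genes were higher and 389 lower. At 1.5-fold, 1 pathway gene was higher and 1 lower, with 284 and 239 of all genes. Without control 1 and control 4, 3 pathway genes were lower, with 371 and 405 of all genes. The cause of these shifts was not tested, beyond the fewer arrays or stricter limits themselves. Median centring moved the median difference of all genes by 0.002. The filters on dim genes removed Aldh1a2 and, in 1 case, Stra6, so these have no value there. No paired analysis was possible because the groups share no replicate numbers.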
